A study of Mus musculus with 25 samples.

Results

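The interferon-stimulated genes of mouse liver are described here as 39 listed mouse symbols, grouped by role into 5 transcription factors, 4 cytosolic nucleic acid sensors, 13 antiviral effectors, 2 genes of the ISG15 system, 7 GTPases of the GBP and IRG families, 3 antigen processing genes and 5 other induced genes. The symbols were taken from a list and no measured value entered the choice of a symbol, although the list was drawn up with earlier results of these data known. All 39 mapped to an Ensembl gene identifier among the 41388 in the files, and all 39 were among the 14065 genes that passed the filter on low counts, which kept genes over 1 CPM (counts scaled to the library's total) in at least 2 libraries. Poly-A RNA was measured in 25 livers, 1 library per mouse, and the question was which effects of the NAD-producing enzyme NAMPT on liver gene expression depend on the deacetylase SIRT1. Every mouse was male, of strain C57B/6J per the labels, 20 weeks old, and had received an adeno-associated virus of serotype 8 (AAV8), so the controls carried a vector as well. WT livers came from Sirt1 LoxP/LoxP littermates without Cre, and LKO livers from Sirt1 LoxP/LoxP mice with Albumin-Cre, which acts in hepatocytes and leaves Kupffer cells and other liver cells with SIRT1. The 5 groups were 3 chow-fed WT livers with the empty vector (chow WT EV) and, on Western diet (WD), 6 WT livers with the empty vector (WD WT EV), 6 with the NAMPT vector (WD WT NAMPT), and LKO livers with either vector, 5 each (WD LKO EV and WD LKO NAMPT). Per the paper, either diet was given for 12 weeks. The treatment text of the labels names SIRT1 as the insert of the vector, whereas the sample titles name NAMPT, and the titles were followed.

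Interferons are secreted signalling proteins, of which those of type I and type III are released by cells that sense viral or other foreign nucleic acid. Type I and type III interferons act through receptors coupled to JAK kinases and a transcription complex that holds STAT2 and IRF9, and interferon gamma acts through its own receptor, with IRF1 as an early target that drives further genes. In liver the products of these genes are made by hepatocytes as well as by Kupffer cells and recruited leukocytes, and they restrict viruses, mark vacuoles that hold microbes and increase the display of peptides on MHC class I.

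The promoter sequences shown first are those of 4 members that reached their highest level in WD WT NAMPT replicate 3 and 4 that reached it in WD LKO NAMPT replicate 4, because those libraries carry much of what follows. Each is the 120 bases before the RefSeq start site (GRCm38.p6), written 5′ to 3′ on the strand of the gene, with 2 motifs in capitals on either strand: GAAANNGAA, the core bound by interferon regulatory factors, and TTCNNNGAA, the gamma-activated site. Where matches overlap, the capitals run on.
Isg15, chr4:156200819-156200938, minus strand: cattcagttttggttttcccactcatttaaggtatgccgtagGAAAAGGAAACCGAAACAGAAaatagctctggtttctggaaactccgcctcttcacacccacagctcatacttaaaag
Ifit1, chr19:34640769-34640888, plus strand: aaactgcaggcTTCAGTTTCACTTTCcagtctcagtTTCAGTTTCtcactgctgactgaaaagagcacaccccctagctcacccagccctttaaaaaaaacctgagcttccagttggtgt
Ifit3, chr19:34583409-34583528, plus strand: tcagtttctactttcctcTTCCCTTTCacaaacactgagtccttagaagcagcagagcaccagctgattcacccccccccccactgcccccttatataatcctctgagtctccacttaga
Oas1a, chr5:120907526-120907645, minus strand: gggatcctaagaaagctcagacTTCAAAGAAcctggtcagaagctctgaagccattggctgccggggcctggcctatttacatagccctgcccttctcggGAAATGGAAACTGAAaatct
Irf1, chr11:53769894-53770013, plus strand: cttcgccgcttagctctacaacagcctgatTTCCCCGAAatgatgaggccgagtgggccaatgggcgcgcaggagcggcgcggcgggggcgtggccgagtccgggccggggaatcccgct
Gbp7, chr3:142530216-142530335, plus strand: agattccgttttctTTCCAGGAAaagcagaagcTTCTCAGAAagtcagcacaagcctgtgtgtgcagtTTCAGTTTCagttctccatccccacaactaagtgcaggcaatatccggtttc
Igtp, chr11:58199436-58199555, plus strand: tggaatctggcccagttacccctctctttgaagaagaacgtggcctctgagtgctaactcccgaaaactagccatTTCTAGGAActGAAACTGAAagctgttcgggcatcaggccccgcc
Irgm2, chr11:58214857-58214976, plus strand: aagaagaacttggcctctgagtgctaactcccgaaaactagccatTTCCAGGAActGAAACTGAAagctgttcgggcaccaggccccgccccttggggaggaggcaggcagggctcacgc
Isg15, Ifit1, Ifit3 and Oas1a, the genes shown from those highest in WD WT NAMPT replicate 3, held 2 or 3 matches to GAAANNGAA each in the 250 bases before the start site, and of these 4 only Oas1a also held TTCNNNGAA. In the other 4, the Irf1 stretch held TTCNNNGAA without GAAANNGAA, and Gbp7, Igtp and Irgm2 held both motifs. The genes shown were picked as examples and differ from the rest of their sets. Of all 25 members highest in WD WT NAMPT replicate 3, 20 had a RefSeq window, of which 11 held GAAANNGAA and 4 TTCNNNGAA, and Irf7, Ddx58, Oasl1 and Xaf1 were among those with neither. Of the 11 highest in WD LKO NAMPT replicate 4, 9 had a window, of which 4 held GAAANNGAA and 5 TTCNNNGAA, while Irf9, Psmb9 and Tap1 held neither. The Igtp and Irgm2 stretches are near copies, with 87 of 90 aligned bases identical, and the Irgm2 start site lies inside the span that the files give to Irgm2, which begins close to the start of Igtp. Of the 39 members 31 had a RefSeq window. In the 250 bases before the start site GAAANNGAA occurred in 16 of the 31 (51.6%), against 8.18% of 27025 genes, and TTCNNNGAA in 10 of the 31 (32.3%), against 8.13% of genes. By role, GAAANNGAA stood in at least 1 window of 6 of 6 GTPases, 6 of 10 antiviral effectors, 1 of 5 transcription factors and 0 of 3 antigen processing genes that had a window. The windows of Psmb9 and Tap1, which are read in opposite directions, share 275 of their 300 bases. A match describes letters in these windows and not a bound site.

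Levels of the members spanned a wide range. Per kilobase of merged exons, the highest were Bst2 (tetherin, which holds budding virions at the cell surface), with a median of 160.9 CPM per kb over the 25 libraries, and Iigp1 (an IRG GTPase that acts on pathogen vacuoles), with 59.3. Irgm2 followed at 13.2 CPM per kb and Stat2 (a subunit of the type I interferon transcription complex) at 11.6. The lowest were Oas3 (0.506), Oas2 (0.432) and Mx1 (0.261), of which the first pair are oligoadenylate synthetases and the last a dynamin-like antiviral GTPase. Mx1 had as few as 8 counts in a library, so its values carry the largest counting error among the members. Total counts per library were 20166175 to 32937326. The text gives CPM after TMM scaling unless it says otherwise, and these are bulk livers, in which fewer cells of a type and less RNA per cell cannot be told apart.

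Some libraries stood apart before any comparison was made. WD WT NAMPT replicate 3 held the highest level of all 25 libraries for 25 of the 39 members (64.1%), against 2.59% of all genes tested. WD LKO NAMPT replicate 4 held it for 11 (28.2%), against 1.49% of all genes. WD WT NAMPT replicate 2 held it for 2 members and WD WT NAMPT replicate 1 for 1, so that every member peaked in a NAMPT library. WD WT NAMPT replicate 2 also had the largest TMM factor (1.29) and was the highest library for 14.5% of all genes. The sample quality weights of the fit were 0.506, 0.401 and 0.336 for WD WT NAMPT replicates 1, 2 and 6 and 0.410 for WD LKO NAMPT replicate 3, against 1.62, 1.85 and 0.922 for WD WT NAMPT replicates 3, 4 and 5 and 1.03 for WD LKO NAMPT replicate 4. Whole-gene Sirt1 counts did not separate the genotypes, with means of 8.84 CPM in WD WT EV and 8.56 in WD LKO EV (log2 fold change -0.07 ± 0.10 (SE), adjusted p = 0.990), and of 8.57 in WD WT NAMPT and 9.81 in WD LKO NAMPT, where the group labelled LKO had the higher mean (0.19 ± 0.11, adjusted p = 0.237). A count over all exons does not show whether an exon is missing, so the LKO groups are named as labelled, and each direction given for them rests on the label. Nampt averaged 47.3 CPM in WD WT EV and 59.4 in WD WT NAMPT (log2 fold change 0.34 ± 0.16, adjusted p = 0.144), and 56.0 in WD LKO EV and 79.8 in WD LKO NAMPT (0.41 ± 0.16, adjusted p = 0.403).

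**Figure D1:**
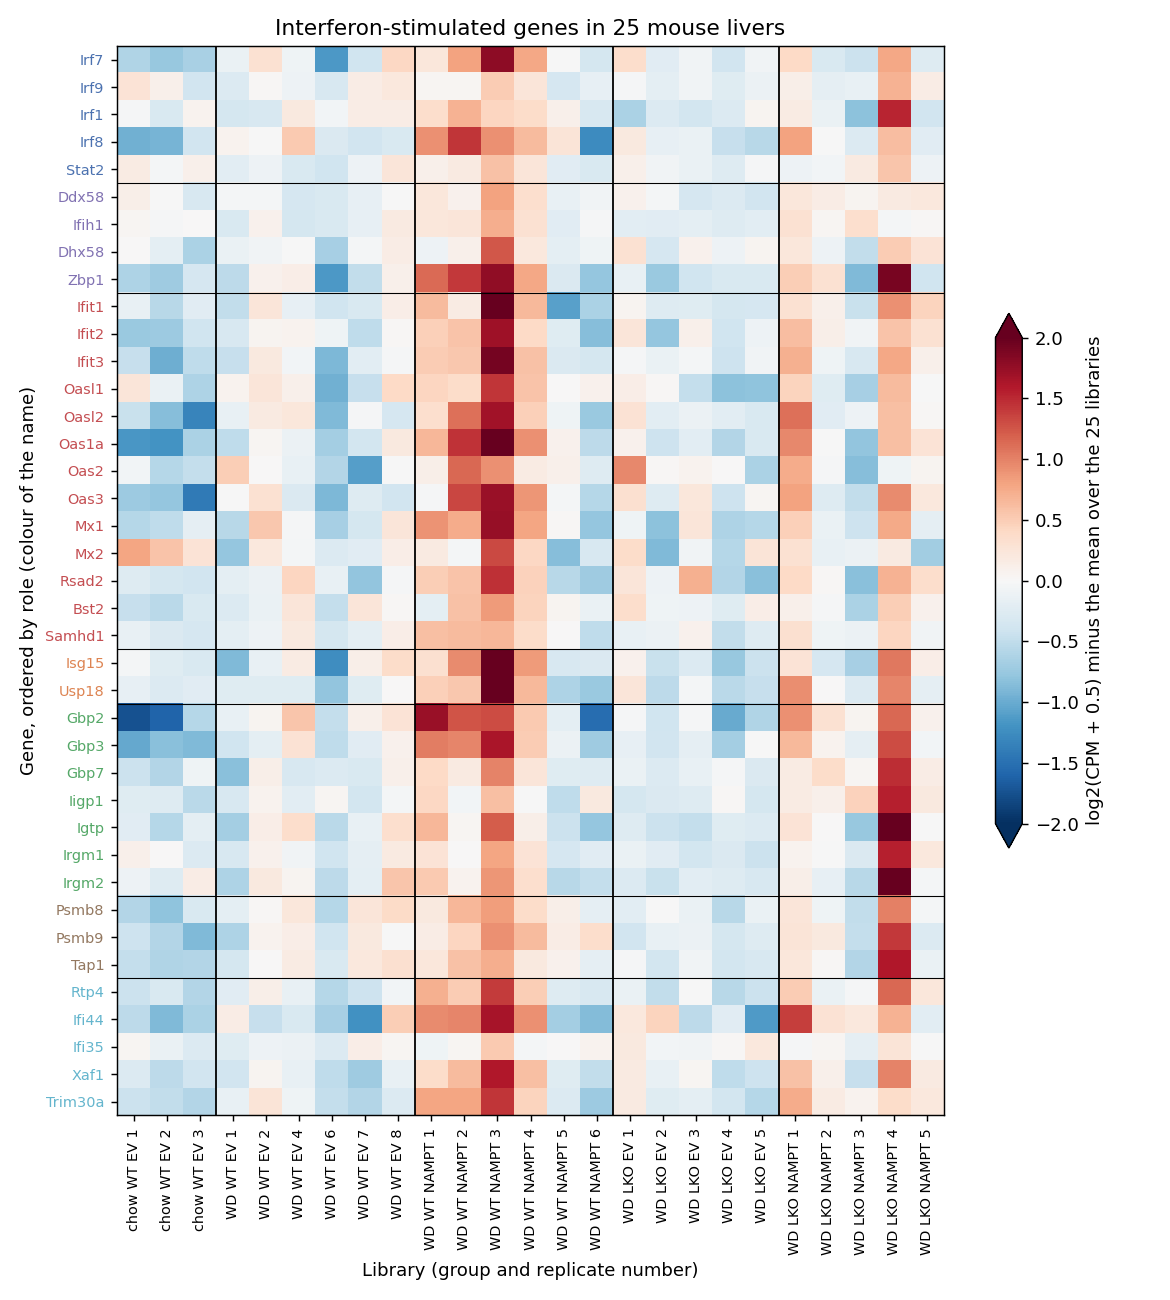
Level of each of the 39 genes (vertical axis, ordered by role) in each of the 25 libraries (horizontal axis, by group and replicate), as log2(CPM + 0.5) minus the gene's mean over the libraries, with colours cut at ±2. Most antiviral effectors and the ISG15 system peak in WD WT NAMPT replicate 3, whereas 5 of the 7 GTPases, the 3 antigen processing genes, Irf1 and Zbp1 peak in WD LKO NAMPT replicate 4.

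The comparison of WD WT NAMPT with WD WT EV asks what the NAMPT vector did with SIRT1 present. In the limma fit, 17 of the 39 members rose and 0 fell at an adjusted p of 0.05 or less, beside 7.67% of all genes tested called higher and 5.77% called lower. All 39 log2 fold changes were above 0, from 0.22 for Irf9 to 1.47 for Oas1a with a median of 0.71, while 50.7% of all genes had one above 0 and their median was 0.00. For no member did every WD WT NAMPT library lie above every WD WT EV library, a separation seen in 0.37% of all genes. The 17 were Irf7 and Irf8 among the 5 transcription factors, Ddx58, Ifih1 and Zbp1 among the 4 sensors, Ifit3, Oas1a, Oas3, Bst2 and Samhd1 among the 13 antiviral effectors, Isg15 of the 2 genes of its system, Gbp3 of the 7 GTPases, Psmb9 of the 3 antigen processing genes, and Rtp4, Ifi44, Xaf1 and Trim30a of the 5 other genes.

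The count of 17 depended on the fit and on single libraries. It was 0 without sample quality weights, 0 with 2 surrogate variables, 1 with edgeR's quasi-likelihood test, 11 with DESeq2 and 26 with scaling by library size alone. The share of all genes called higher moved as well, from 7.67% to 0.569%, 0.178%, 1.92%, 5.21% and 14.3% in that order. Every member kept a fold change above 0 under each alternative except 2 surrogate variables, where 36 did. Scaling by library size alone moved the median of all genes from 0.00 to 0.16 (log2) and the calls over all genes from 1079 higher and 811 lower to 2010 and 271, and the members' median was then 0.86. Without WD WT NAMPT replicate 3 the count was 0 and the members' median 0.38, and without WD WT NAMPT replicate 5 they were 30 and 0.94, beside 0.456% and 11.5% of all genes called higher. The count was 1 without WD WT EV replicate 2 or 6, 9 without WD WT EV replicate 7, 8 without WD WT NAMPT replicate 1 and 2 without WD WT NAMPT replicate 2, with 1.24% to 5.52% of all genes called higher, and all 39 fold changes stayed above 0 in each of these fits.

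Among the transcription factors, Irf7, the factor that amplifies type I interferon production (chr7:141262706-141266481, minus strand), had a lowest, median and highest level of 15.97, 33.3 and 47.9 CPM in WD WT EV and 28.03, 51.9 and 125 in WD WT NAMPT. It measured 45.9, 30.6, 34.3, 27.5 and 34.0 CPM in WD LKO EV and 47.4, 28.9, 26.5, 61.4 and 29.9 in WD LKO NAMPT, and 23.3, 20.9 and 22.8 in chow WT EV. Replicate 3 of WD WT NAMPT stood at 125 CPM with the next library at 63.1, and the lower libraries of the group overlapped WD WT EV. Irf7 rose in WD WT NAMPT by a log2 fold change of 0.94 ± 0.29 (adjusted p = 0.0318). Irf8, a factor of macrophages and dendritic cells, had 7.63, 9.11 and 14.8 CPM as lowest, median and highest in WD WT EV and 3.93, 17.7 and 28.1 in WD WT NAMPT, where it rose by 0.74 ± 0.23 (adjusted p = 0.0373). Its lowest library in all, WD WT NAMPT replicate 6, belonged to the group that was higher on average. Irf1, Irf9 and Stat2, the early target of interferon gamma and 2 subunits of the type I complex, had log2 fold changes of 0.43, 0.22 and 0.36 and were not called.

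Among the sensors, Ddx58 (RIG-I, which binds viral RNA ends; chr4:40203773-40239828, minus strand) had 28.1, 33.0 and 35.2 CPM as lowest, median and highest in WD WT EV and 32.1, 39.7 and 62.6 in WD WT NAMPT. In WD LKO EV it measured 37.6, 34.7, 28.1, 29.2 and 27.2 CPM, in WD LKO NAMPT 41.5, 39.4, 37.0, 40.4 and 41.1, and in chow WT EV 38.4, 35.3 and 28.3. The WD LKO NAMPT values lay close together and overlapped WD LKO EV only through replicate 3 of the former and replicate 1 of the latter. Ddx58 rose in WD WT NAMPT by 0.48 ± 0.13 on the log2 scale (adjusted p = 0.0185). Ifih1 (MDA5, which binds long double-stranded RNA; chr2:62595798-62646255, minus strand) had 35.0, 38.2 and 51.0 CPM in WD WT EV and 38.3, 53.1 and 74.9 in WD WT NAMPT, and rose by 0.43 ± 0.12 (adjusted p = 0.0233). Its 5 values in WD LKO EV were 38.9, 38.5, 39.1, 37.4 and 38.9 CPM and those in WD LKO NAMPT 55.6, 46.4, 56.8, 43.9 and 45.7, while chow WT EV stood at 46.5, 44.3 and 45.4. The last of these groups sat within the range of WD LKO NAMPT. Zbp1, a sensor of Z-form nucleic acid that can trigger cell death, rose by 1.23 ± 0.40 (adjusted p = 0.0415), from a median of 6.09 CPM in WD WT EV to 14.04 in WD WT NAMPT. Dhx58 (LGP2, a regulator of both RNA sensors) had a log2 fold change of 0.54 (adjusted p = 0.102).

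Among the antiviral effectors, Oas1a, a 2′-5′ oligoadenylate synthetase that activates RNase L (chr5:120896256-120907521, minus strand), had 2.10, 3.04 and 4.29 CPM as lowest, median and highest in WD WT EV and 2.42, 6.75 and 19.01 in WD WT NAMPT. It measured 3.94, 2.65, 3.11, 2.27 and 2.89 CPM in WD LKO EV, 7.60, 3.68, 1.92, 5.87 and 4.57 in WD LKO NAMPT, and 1.36, 1.33 and 2.21 in chow WT EV. WD WT NAMPT replicates 1 to 4 lay above every WD WT EV library and replicates 5 and 6 within their range. Oas1a rose by 1.47 ± 0.36 (adjusted p = 0.0149), the lowest adjusted p of any member in this comparison. Oas3, of the same enzyme family (chr5:120753098-120777661, minus strand), had 1.24, 2.17 and 3.47 CPM in WD WT EV and 1.67, 4.04 and 10.1 in WD WT NAMPT and rose by 1.18 ± 0.36 (adjusted p = 0.0346). Its values were 3.54, 2.20, 3.26, 1.93 and 2.81 CPM in WD LKO EV, 5.16, 2.20, 1.79, 5.70 and 3.22 in WD LKO NAMPT and 1.44, 1.38 and 0.709 in chow WT EV. In each NAMPT group the low libraries of Oas3 overlapped the matching EV group.

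Ifit3, a protein that helps IFIT1 bind foreign RNA caps (chr19:34583531-34588731, plus strand), had 6.45, 11.4 and 14.4 CPM as lowest, median and highest in WD WT EV and 9.68, 18.3 and 48.6 in WD WT NAMPT. It measured 12.3, 11.3, 12.2, 9.25 and 12.0 CPM in WD LKO EV, 20.8, 11.8, 9.97, 21.8 and 13.4 in WD LKO NAMPT, and 8.91, 6.09 and 8.70 in chow WT EV. Replicate 3 of WD WT NAMPT stood at 48.6 CPM, with the next library at 19.1. Ifit3 rose in WD WT NAMPT by 0.99 ± 0.31 (adjusted p = 0.0357). Bst2 (chr8:71534264-71537437, minus strand) had 89.1, 120 and 148 CPM in WD WT EV and 108, 149 and 224 in WD WT NAMPT, and rose by 0.49 ± 0.16 (adjusted p = 0.0452). Its values were 158, 117, 115, 106 and 136 CPM in WD LKO EV, 134, 123, 79.9, 176 and 132 in WD LKO NAMPT, and 89.9, 85.6 and 100.2 in chow WT EV, with overlap between each pair of WD groups. Samhd1, which breaks down deoxynucleotides (chr2:157097533-157135265, minus strand), had 21.2, 24.5 and 31.2 CPM in WD WT EV and 18.9, 38.2 and 43.2 in WD WT NAMPT and rose by 0.48 ± 0.14 (adjusted p = 0.0261). It measured 24.4, 24.9, 28.7, 19.1 and 22.7 CPM in WD LKO EV, 33.9, 25.5, 24.9, 36.8 and 25.7 in WD LKO NAMPT, and 24.4, 21.99 and 21.3 in chow WT EV. WD WT NAMPT replicate 6 was the lowest of all 25 libraries for Samhd1, and replicates 1 to 4 of that group lay above every WD WT EV library. The remaining 8 effectors, Ifit1, Ifit2, Oasl1, Oasl2, Oas2, Mx1, Mx2 and Rsad2, had log2 fold changes from 0.55 to 1.20 with adjusted p from 0.0544 to 0.297.

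Isg15, a ubiquitin-like protein attached to newly made proteins (chr4:156199424-156200818, minus strand), had 3.02, 7.78 and 10.3 CPM as lowest, median and highest in WD WT EV and 6.14, 12.2 and 34.4 in WD WT NAMPT. It measured 8.32, 5.61, 6.396, 4.43 and 5.69 CPM in WD LKO EV, 9.58, 6.08, 4.75, 16.8 and 8.67 in WD LKO NAMPT, and 7.64, 6.58 and 6.26 in chow WT EV. The highest library of each NAMPT group, replicate 3 and replicate 4, stood above the other libraries by a wide margin, and the groups overlapped at the low end. Isg15 rose in WD WT NAMPT by 1.27 ± 0.38 (adjusted p = 0.0289). Usp18, the protease that removes ISG15 and damps the type I receptor, had 1.10 ± 0.37 with an adjusted p of 0.0504, just outside the threshold.

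Of the GTPases, Gbp3 (chr3:142560052-142573209, plus strand) had 5.54, 6.92 and 9.99 CPM as lowest, median and highest in WD WT EV and 4.73, 14.03 and 26.2 in WD WT NAMPT, and rose by 0.99 ± 0.30 (adjusted p = 0.0300). It measured 7.19, 6.06, 7.08, 4.86 and 8.05 CPM in WD LKO EV, 12.9, 8.47, 7.06, 20.8 and 7.79 in WD LKO NAMPT, and 3.71, 4.31 and 4.14 in chow WT EV. The chow libraries were the 3 lowest of all 25 for this gene. Gbp2, of the same family of guanylate-binding proteins that gather on pathogen vacuoles (chr3:142620602-142638008, plus strand), had 4.85, 7.34 and 10.4 CPM in WD WT EV and 2.10, 13.7 and 24.2 in WD WT NAMPT, with a log2 fold change of 0.71 ± 0.32 (adjusted p = 0.132). Its extremes among the WD libraries, replicate 6 and replicate 1, both belonged to WD WT NAMPT. Iigp1, the GTPase with the most counts of any member (3081 to 13229 per library), had 146, 174 and 200 CPM in WD WT EV and 133, 202 and 286 in WD WT NAMPT, and its log2 fold change was 0.23 ± 0.20 (adjusted p = 0.443). The other 4 GTPases, Gbp7, Igtp, Irgm1 and Irgm2, had log2 fold changes from 0.36 to 0.58 and were not called.

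Psmb8, a catalytic subunit of the immunoproteasome (chr17:34197721-34201454, plus strand), had 9.38, 15.5 and 18.5 CPM in WD WT EV and 12.4, 17.3 and 25.6 in WD WT NAMPT, with a log2 fold change of 0.45 ± 0.19 (adjusted p = 0.106). It measured 12.2, 14.02, 12.8, 9.52 and 12.9 CPM in WD LKO EV, 16.9, 13.3, 9.89, 28.9 and 13.8 in WD LKO NAMPT, and 9.29, 7.86 and 11.3 in chow WT EV. Every pair of WD groups overlapped for Psmb8. Psmb9, its partner subunit, rose by 0.67 ± 0.22 (adjusted p = 0.0418), whereas Tap1, which carries peptides into the endoplasmic reticulum, had 0.35 ± 0.22 (adjusted p = 0.292). Psmb9 and Tap1 share 212 exonic bases on opposite strands, and Igtp and Irgm2 share 162 on the same strand, and the strand setting of the counting is not given in the sources used here, so the counts of these genes are uncertain to that extent. Shared exonic bases were also annotated for Irf7 (45, with Phrf1), Irf9 (123, with Rnf31), Gbp2 (24, with Mir6381), Psmb8 (186, with Gm20496), Ifi35 (290, with Gm11626), Dhx58 (141, with Dhx58os), Irf1 (135, with Gm17334) and Oasl1 (38, with Gm13822).

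Among the other induced genes, Xaf1, a promoter of apoptosis (chr11:72301629-72313733, plus strand), had 3.51, 4.97 and 6.34 CPM in WD WT EV and 4.14, 8.73 and 19.4 in WD WT NAMPT and rose by 1.01 ± 0.29 (adjusted p = 0.0259). It measured 6.95, 5.41, 6.28, 4.13 and 4.43 CPM in WD LKO EV, 9.30, 6.57, 4.27, 12.5 and 6.95 in WD LKO NAMPT, and 4.91, 4.09 and 4.53 in chow WT EV. The low libraries of each NAMPT group again lay within the range of the EV groups. Ifi44, Rtp4 and Trim30a rose by 1.26, 0.80 and 0.79 (adjusted p = 0.0414, 0.0371 and 0.0380), and Ifi35 had 0.25 (adjusted p = 0.128).

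**Figure D2:**
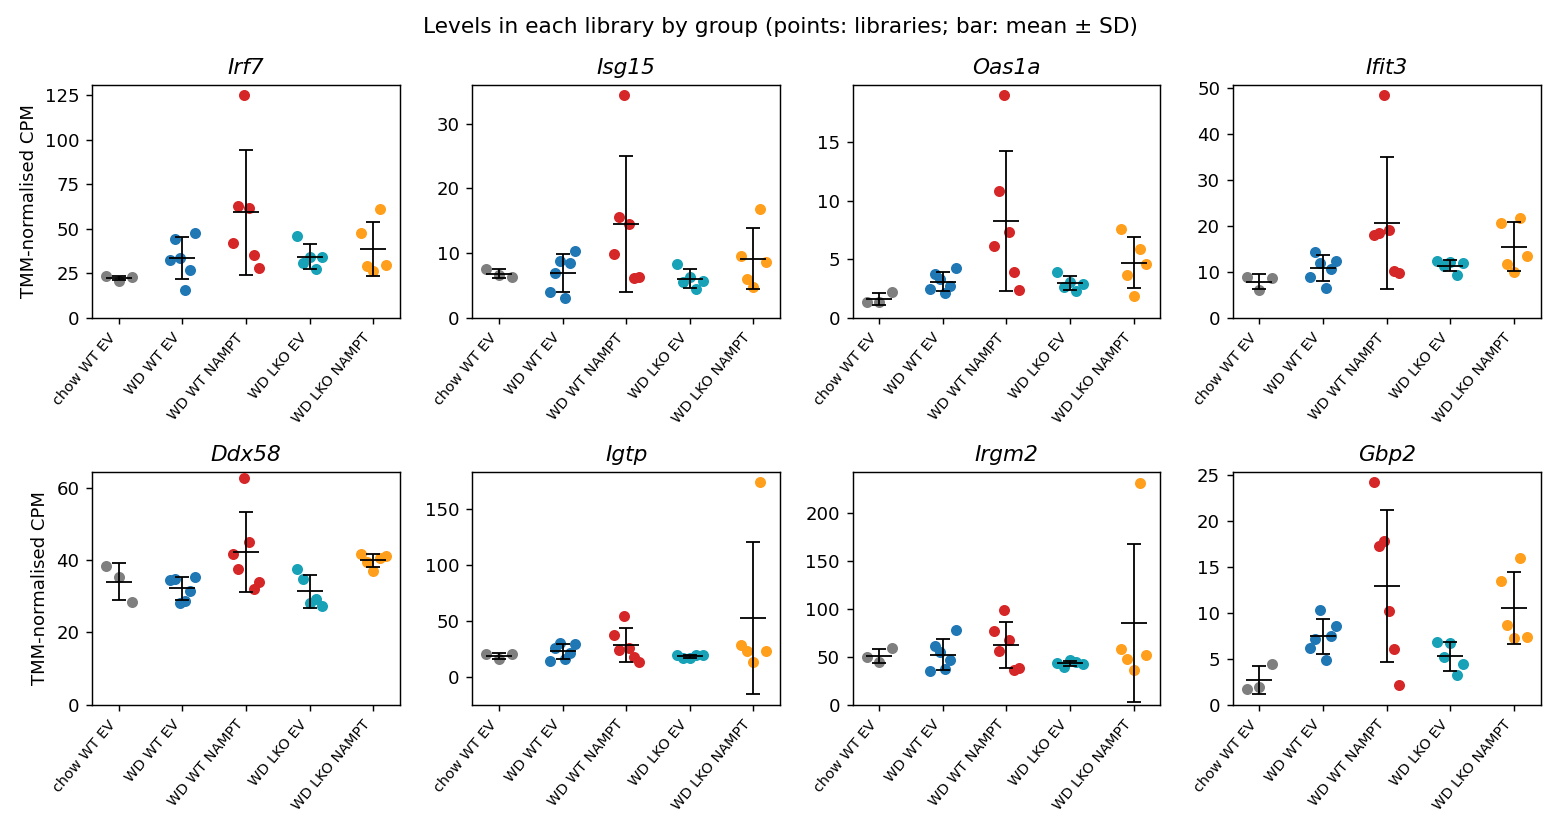
CPM after TMM scaling (vertical axis, linear) of 8 genes in the 5 groups (horizontal axis), with 1 point per library and bars for the mean ± SD; for Igtp the lower bar passes below 0. Isg15, Oas1a and Ifit3 are highest in WD WT NAMPT replicate 3 (34.4, 19.01 and 48.6 CPM), and Igtp and Irgm2 in WD LKO NAMPT replicate 4 (174 and 232 CPM).

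The spread within WD WT NAMPT was large and shared across members. Of the 39 members, 25, 28, 39 and 30 lay above every WD WT EV library in replicates 1, 2, 3 and 4, against 0 in replicate 5 and 2 in replicate 6. In WD LKO NAMPT the same counts were 25, 7, 3, 36 and 10 for replicates 1 to 5. The highest libraries of both groups therefore carried nearly all members together, but they differed in which roles were highest. In WD WT NAMPT replicate 3 the antiviral effectors stood at a median of 2.56 times the median of the rest of the group, the ISG15 system at 3.21 times, the GTPases at 1.77 times and the antigen processing genes at 1.49 times. In WD LKO NAMPT replicate 4 the order was different, with the antigen processing genes at 2.75 times, the GTPases at 2.61 times, the ISG15 system at 2.22 times and the antiviral effectors at 1.44 times. These are values of 1 library each, picked after they were seen, so no test applies to them.

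Igtp, an IRG GTPase, was the extreme case, with 28.3, 23.4, 13.6, 174 and 23.2 CPM in replicates 1 to 5 of WD LKO NAMPT. Irgm2, its neighbour on chromosome 11 that regulates other IRG GTPases, measured 58.0, 47.7, 36.2, 232 and 52.0 CPM, and Iigp1 211, 202, 261, 559 and 217. In all 3 genes replicate 4 stood more than 2-fold above each of the other libraries of its group, and WD LKO EV measured 16.7 to 19.6 CPM for Igtp and 38.9 to 46.2 for Irgm2. Irf1 measured 28.6, 23.3, 14.3, 74.4 and 19.6 CPM in the same libraries and Zbp1 10.04, 8.67, 3.53, 27.2 and 5.18. Irf1 stood at 3.47 times the rest of its group in this library and at 1.05 times in WD WT NAMPT replicate 3, whereas Ifit1, an RNA cap-binding effector, stood at 1.67 and 3.74 times. Ddx58 (1.004 times) and Ifih1 (0.861 times) did not stand above the rest of the group in WD LKO NAMPT replicate 4.

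**Figure D3:**
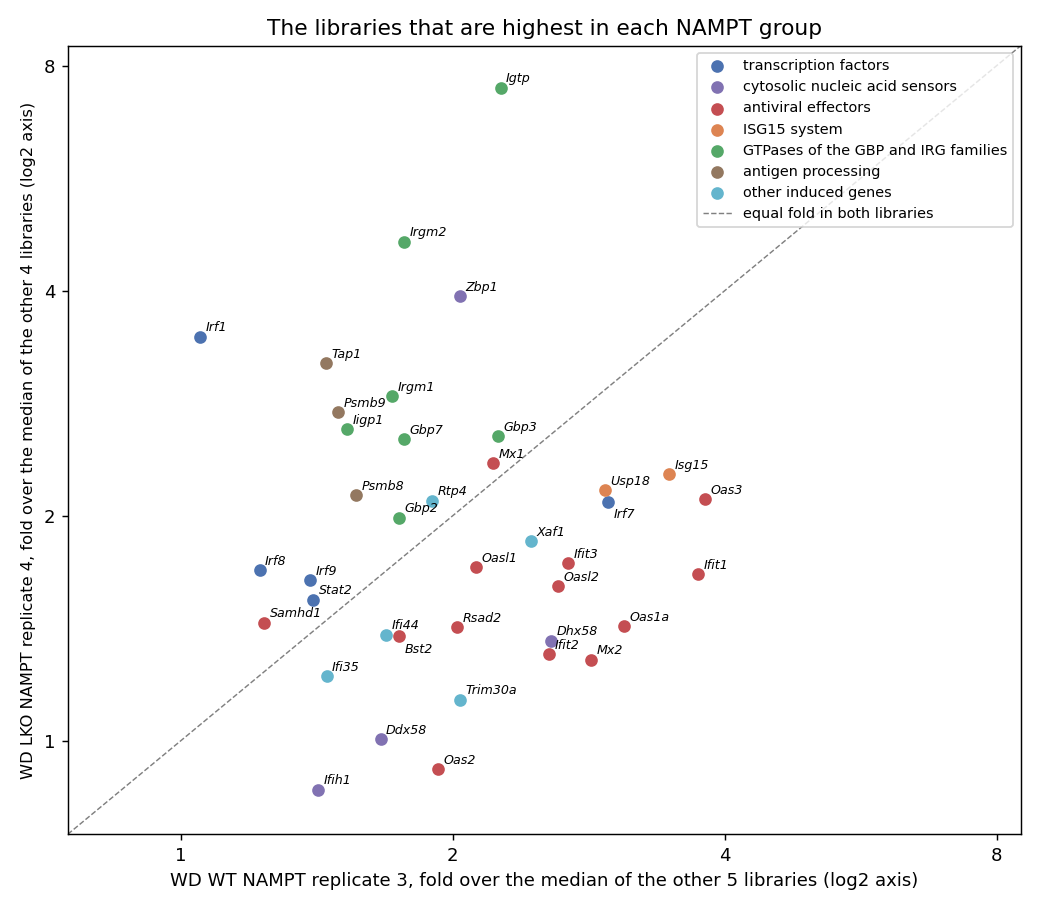
Fold of each of the 39 genes in WD WT NAMPT replicate 3 over the median of the other 5 libraries of its group (horizontal, log2 axis) against the fold in WD LKO NAMPT replicate 4 over the median of the other 4 (vertical, log2 axis), with colours for the roles. Igtp (7.47), Irgm2 (4.65), Zbp1 (3.93) and Irf1 (3.47) stand highest on the vertical axis, and the antiviral effectors lie mostly below the line of equal fold.

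Markers of other cell types moved with the members in WD WT NAMPT. Of 12 Kupffer cell and macrophage markers, 9 were called higher in WD WT NAMPT than in WD WT EV and 0 lower (median log2 fold change 0.74), and 0 of the 12 were at 0 in all libraries. Their summed level was 412 to 515 CPM in chow WT EV, 494 to 703 in WD WT EV and 539 to 724 in WD LKO EV. It was 1381, 1326, 1398, 971, 800 and 464 CPM in replicates 1 to 6 of WD WT NAMPT, and 1156, 636, 494, 650 and 705 in replicates 1 to 5 of WD LKO NAMPT. The 5 libraries with the highest sums, WD WT NAMPT replicates 1 to 4 and WD LKO NAMPT replicate 1, each had 25 or more members above every WD WT EV library. WD LKO NAMPT replicate 4 had 36 such members at a macrophage sum of 650 CPM, inside the range of WD WT EV, and WD WT NAMPT replicate 5 had 0 at a sum of 800 CPM, above that range. Of 5 neutrophil markers tested 1 was called higher, beside 7.67% of all genes, and all 5 log2 fold changes were above 0 (median 1.57). Neutrophil sums were low, at 1.24 to 6.33 CPM in WD WT EV. They were 13.4, 17.4, 7.74, 16.1, 3.83 and 1.56 CPM in replicates 1 to 6 of WD WT NAMPT, and 14.1 in WD LKO NAMPT replicate 1. Of 6 stellate cell markers 2 were called higher, with sums of 318 to 432 CPM in WD WT EV and 338 to 490 in WD WT NAMPT. Of 9 hepatocyte markers 2 were called lower, with sums of 71290 to 89041 and 58988 to 80521 CPM. The part of these cell types in the members' rise was not tested.

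**Figure D4:**
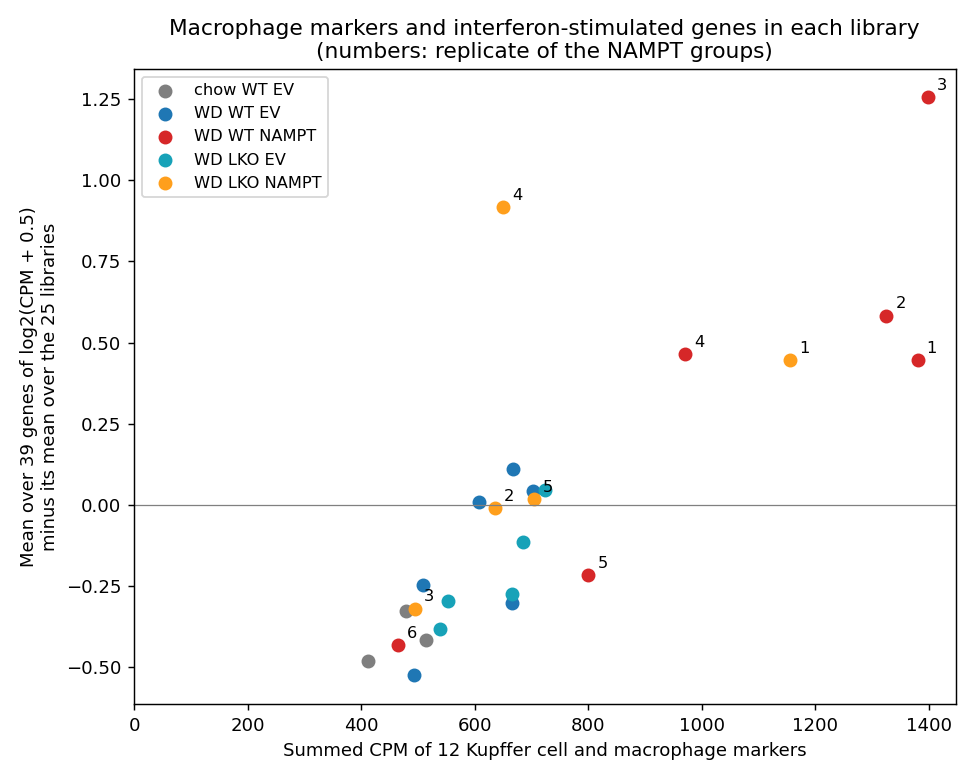
Summed CPM of 12 Kupffer cell and macrophage markers (horizontal) against the mean over the 39 genes of log2(CPM + 0.5) minus its mean over the 25 libraries (vertical), 1 point per library, with replicate numbers at the NAMPT libraries. WD WT NAMPT replicates 1 to 3 lie at 1326 to 1398 CPM, whereas WD LKO NAMPT replicate 4 is the next highest library for the 39 genes after WD WT NAMPT replicate 3 at a marker sum of 650 CPM.

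The comparison of WD LKO NAMPT with WD LKO EV asks for the effect of the vector in livers labelled as lacking hepatocyte SIRT1. Of the 39 members 0 were called, beside 0.00711% of all genes tested (1 gene), so there were almost no calls over all genes in this comparison. At an unadjusted p under 0.05 there were 10 of the 39 members, beside 9.63% of all genes, and the count called was also 0 with edgeR's quasi-likelihood test, with DESeq2 and in each other alternative. Log2 fold changes were above 0 for 38 members, with Oas2 at -0.05, and the median was 0.45 against 0.02 for all genes. The GTPases had the largest median of the roles (0.67), and 5 of the 7 had an unadjusted p under 0.05. Without WD LKO NAMPT replicate 4, the library highest of all for 5 of these 7 genes, the GTPase median was 0.37 and 3 of the 7 had such a p. The median over the 39 was 0.26 without WD LKO NAMPT replicate 4, when 33 were above 0, and it rose to 0.65 at most when another library was left out.

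Iigp1 had the lowest p of the members in this comparison, with a log2 fold change of 0.72 ± 0.21 (unadjusted p = 0.00184, adjusted p = 0.234). Its values were 148, 154, 158, 193 and 149 CPM in WD LKO EV against 211, 202, 261, 559 and 217 in WD LKO NAMPT, and 160, 159 and 130 in chow WT EV. The LKO groups did not overlap for Iigp1, and the same held for Ifih1, Gbp7 and Gbp2, which makes 4 of 39 members against 0.505% of all genes. Gbp2 measured 6.83, 5.16, 6.78, 3.20 and 4.39 CPM in WD LKO EV and 13.5, 8.64, 7.23, 15.96 and 7.42 in WD LKO NAMPT, with a log2 fold change of 0.87 ± 0.35 (adjusted p = 0.423). Gbp7, a guanylate-binding protein linked to control of vacuolar microbes, had 0.67 ± 0.23 (adjusted p = 0.328), and Ifih1 0.30 ± 0.13 (adjusted p = 0.453). Of the 12 macrophage markers 0 were called in either direction in this comparison, beside 0.00711% of all genes. Their log2 fold changes were above 0 for 10 of the 12, with a median of 0.12.

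**Figure D5:**
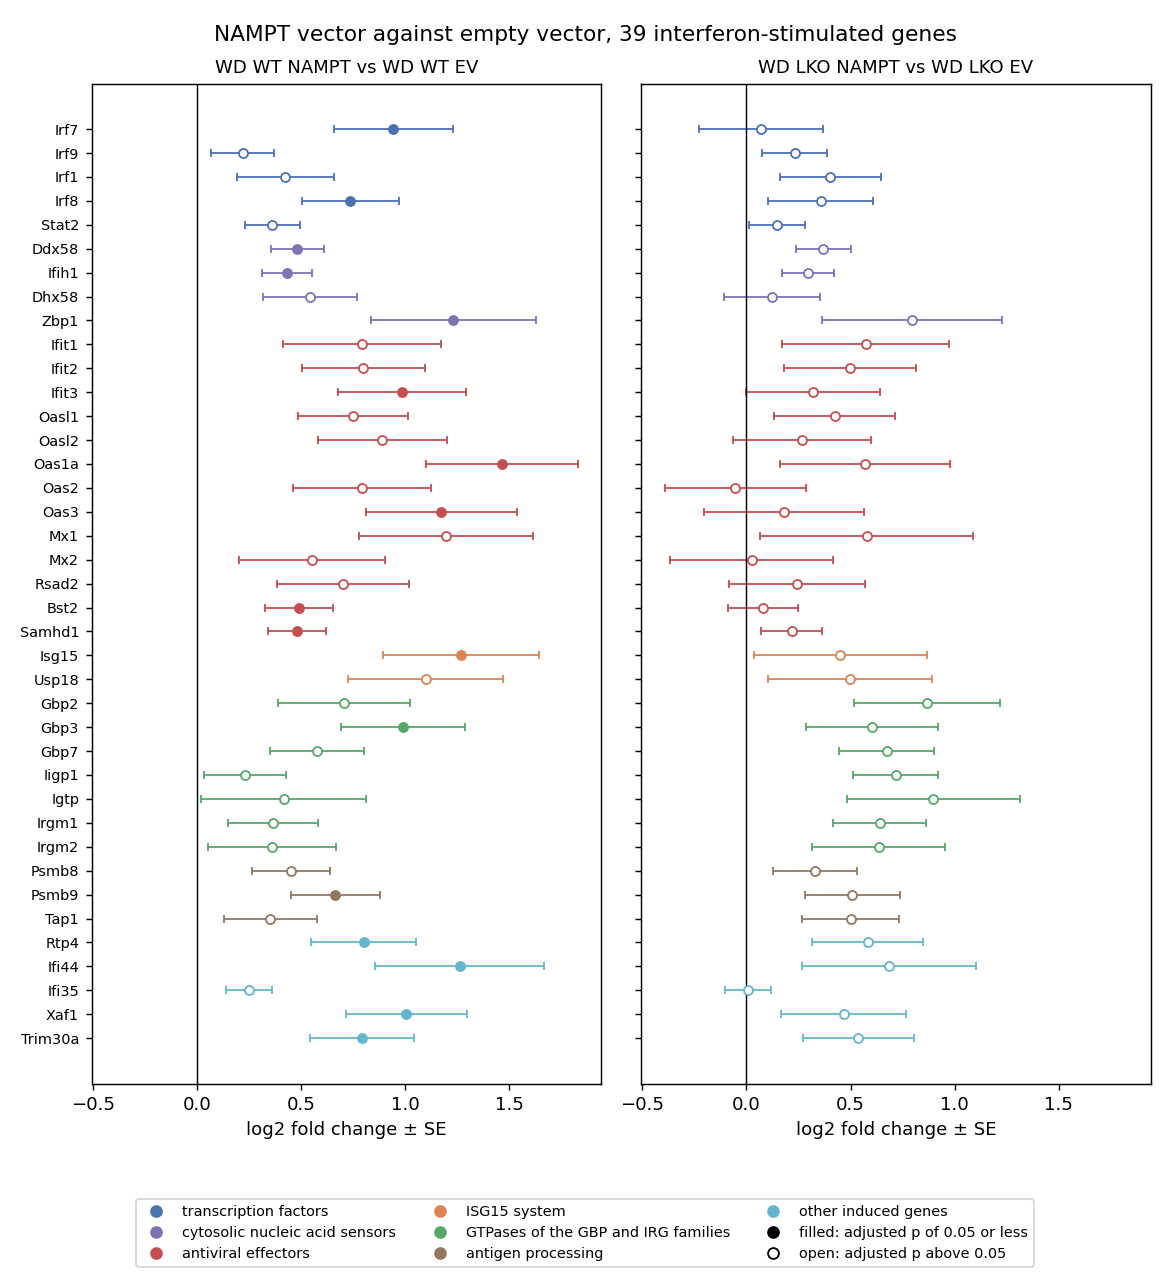
Log2 fold change ± SE (horizontal) of the 39 genes (vertical, ordered and coloured by role) for the NAMPT vector against the empty vector in WT livers (left) and in livers labelled LKO (right), with filled points for an adjusted p of 0.05 or less. In WT livers all 39 lie above 0 and 17 are filled; in livers labelled LKO 38 lie above 0 and 0 are filled.

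Whether the vector's effect differed between genotypes was tested as an interaction, and 0 of the 39 members passed, beside 0.00711% of all genes tested. With edgeR's quasi-likelihood test and with DESeq2 the count was 0 as well, and 1 of the 39 members had an unadjusted p under 0.05, beside 21.2% of all genes. That was Irf7, whose log2 fold change was 0.94 in WT and 0.07 in LKO livers, a difference of -0.87 ± 0.41 (unadjusted p = 0.0447, adjusted p = 0.225). The difference was below 0 for 31 members, including all 13 antiviral effectors, and above 0 for 6 of the 7 GTPases, among them Iigp1 (0.48 ± 0.28) and Igtp (0.48 ± 0.57). The GTPases' direction depended on single libraries. Without WD LKO NAMPT replicate 4 only 1 of the 39 members was above 0, with a median of -0.45 over the members, and the GTPase median went from 0.27 to -0.09. Without WD WT NAMPT replicate 4 or replicate 5, 4 of the 7 GTPases were above 0, with medians of 0.19 and 0.06. Without WD WT NAMPT replicate 3, 17 were above 0 and the median was -0.03. With 2 surrogate variables the median difference over the members turned from -0.30 to 0.28. Scaling by library size alone moved the median of all genes from -0.01 to -0.15 and that of the members to -0.41. The WT effect passed the threshold for 17 members and the LKO effect for 0, but a difference between these effects was not shown for any of them.

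Between the NAMPT groups, WD LKO NAMPT against WD WT NAMPT, 0 of the 39 members were called, beside 7.96% of all genes tested. The count was 0 in each of the 8 alternatives, and 9 of the 39 members had an unadjusted p under 0.05, beside 28.6% of all genes. Log2 fold changes were below 0 for 34 members with a median of -0.36, and by role the median was -0.61 for the antiviral effectors and 0.07 for the GTPases. Oas1a had the lowest adjusted p, at -0.98 ± 0.34 (adjusted p = 0.0689), followed by Irf7 at -0.85 ± 0.30 (adjusted p = 0.0722). The 5 members with a value above 0 were the GTPases Gbp7, Iigp1, Igtp, Irgm1 and Irgm2, at 0.03 to 0.33. That direction also rested on single libraries, since 1 member was above 0 without WD LKO NAMPT replicate 4, without WD WT NAMPT replicate 4 or without WD WT NAMPT replicate 5, and 16 were above 0 without WD WT NAMPT replicate 3, with medians of -0.53, -0.54, -0.64 and -0.06 in that order. With scaling by library size alone the median of all genes moved from -0.01 to -0.12, the calls over all genes went from 588 higher and 532 lower to 204 and 636, and the members' median was -0.45, whereas with 2 surrogate variables that median was 0.19. Calls among the members, all lower in WD LKO NAMPT, numbered 12 without WD WT NAMPT replicate 5, 6 without WD WT NAMPT replicate 6, 8 without WD LKO NAMPT replicate 4 and 2 without WD LKO NAMPT replicate 1. The share of all genes called lower, 3.78% with all libraries, was 7.43%, 8.55%, 5.58% and 7.85% in these fits. Macrophage markers moved in the same direction, with 3 of 12 called lower and sums of 464 to 1398 CPM in WD WT NAMPT and 494 to 1156 in WD LKO NAMPT, and their part in the members' values was not tested.

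Under the empty vector, WD LKO EV against WD WT EV, 0 of the 39 members were called, beside 0.00711% of all genes, and 0 had an unadjusted p under 0.05, beside 6.33% of all genes. edgeR's quasi-likelihood test and DESeq2 also called 0. The log2 fold changes ran from -0.44 for Gbp2 to 0.32 for Oas2, 26 of 39 were below 0 and the median was -0.09. Igtp, for example, measured 14.4, 23.4 and 30.1 CPM as lowest, median and highest in WD WT EV and 19.6, 17.2, 16.7, 19.6 and 19.2 in WD LKO EV, all within the WD WT EV range. Each of the 4 WD groups enters more than 1 of these comparisons, and WD WT EV also enters the diet comparison, so their values are not independent of each other.

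The diet comparison, WD WT EV against chow WT EV, asks what Western diet did to the members without added NAMPT. In it 3 of the 39 members rose and 0 fell, beside 10.1% of all genes called higher and 12% called lower. The 3 were Gbp2 (1.77 ± 0.51, adjusted p = 0.0155), Irf8 (0.86 ± 0.31, adjusted p = 0.0460) and Psmb8 (0.69 ± 0.23, adjusted p = 0.0336). Gbp2 measured 1.73, 1.96 and 4.49 CPM in chow WT EV against 4.85 to 10.4 in WD WT EV, Irf8 4.99, 5.11 and 7.68 against 7.63 to 14.8, and Psmb8 9.29, 7.86 and 11.3 against 9.38 to 18.5. Of these only Gbp2 had groups that did not overlap. Every WD WT EV library lay above every chow library for Gbp2, Gbp3 and Tap1, 3 of 39 members beside 7.68% of all genes, and below every chow library for Mx2, an antiviral dynamin-like GTPase, 1 of 39 beside 8.43%.

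Across the 39 genes 30 log2 fold changes were above 0 on Western diet and the median was 0.27, with Mx2 lowest at -0.83 (adjusted p = 0.0985). Oas1a (1.11 ± 0.57, adjusted p = 0.165) had the largest value after Gbp2. The count of 3 was 0 with edgeR's quasi-likelihood test, 1 with DESeq2 and 9 when only the groups compared were fitted, of which 8 were higher and 1 lower. The share of all genes called higher was 4.58%, 6.66% and 9.85% in that order, and 10% were called lower in the last of these fits. With 2 surrogate variables the count was 1, lower, and the median was -0.10. It was 0 without chow replicate 1 or chow replicate 2, and 1 without WD WT EV replicate 2 or 4. Of all genes, 2.81% and 2.52% were called higher without chow replicate 1 and chow replicate 2, and 9.20% and 8.60% without WD WT EV replicate 2 and 4. Scaling by library size alone gave 1 call among the members and moved the calls over all genes from 1414 higher and 1687 lower to 1053 and 2175. Of 12 macrophage markers 4 were called higher, with sums of 412 to 515 CPM in chow WT EV and 494 to 703 in WD WT EV, and their part in these values was not tested.

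Further genes of the pathway were read from lists that hold no member. Of 10 interferon ligand genes, 7 (among them Ifnb1, 4 interferon alpha genes, Ifnl2 and Ifnl3) had 0 counts in all 25 libraries, which allows up to 3 counts in a library. Ifng had counts in 8 libraries, at most 6 (WD WT NAMPT replicate 2), and 0 in all others, WD LKO NAMPT replicate 4 among them, which again allows up to 3 counts. The part of Ifng in the members' levels was not tested. Ifne had 1 count in 1 library. Ifnk had 2 to 23 counts in every library, with means of 0.573 ± 0.289 CPM in chow WT EV (SD, n = 3), 0.389 ± 0.241 in WD WT EV (n = 6), 0.195 ± 0.137 in WD WT NAMPT (n = 6), 0.293 ± 0.182 in WD LKO EV (n = 5) and 0.331 ± 0.145 in WD LKO NAMPT (n = 5). None of the 10 passed the filter on low counts, so no ligand was tested.

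The counts of these lists in WD WT NAMPT against WD WT EV stand beside the 7.67% of all genes called higher. Of 8 receptor and kinase genes tested, 2 were called higher, Ifngr1 (0.57 ± 0.15, adjusted p = 0.0167) and Ifngr2 (0.33 ± 0.10, adjusted p = 0.0353), the chains of the interferon gamma receptor, while Ifnar1 of the type I receptor had 0.12 ± 0.06 (adjusted p = 0.179). Of 16 upstream sensors and adaptors 5 were called higher, among them Tlr7 and Tlr9, endosomal receptors of nucleic acid, and Myd88, their adaptor. Of 8 negative regulators 2 were called higher, Ptpn6 (SHP-1; 0.57 ± 0.12, adjusted p = 0.00851) and Socs1 (1.05 ± 0.34, adjusted p = 0.0431), and Socs3 had 0.59 ± 0.34 (adjusted p = 0.248). Of 61 further interferon-stimulated genes 19 were called higher, among them Parp14 (0.74 ± 0.18, adjusted p = 0.0134) and Sp140 (0.86 ± 0.21, adjusted p = 0.0137). None of these lists held a gene called lower in this comparison. In WD LKO NAMPT against WD LKO EV and in WD LKO EV against WD WT EV no gene of these lists was called, beside 0.00711% of all genes in each. In WD LKO NAMPT against WD WT NAMPT 1, 2, 1 and 5 genes of the 4 lists were called lower, beside 3.78% of all genes, with Tlr9 (-1.28 ± 0.35, adjusted p = 0.0335), Oas1g (-1.42 ± 0.40, adjusted p = 0.0348) and Socs1 (-1.31 ± 0.37, adjusted p = 0.0352) at the lowest adjusted p. On Western diet 2 receptor and kinase genes were called higher and 1 lower, 2 upstream sensors and adaptors higher and 2 lower (Irf3 and Irf5), 1 negative regulator higher, and 6 further genes higher and 1 lower, beside the 10.1% and 12% of all genes given above. Among them Ticam1 (0.58 ± 0.10, adjusted p = 0.000325), an adaptor of Toll-like receptors, and Cxcl9 (1.93 ± 0.44, adjusted p = 0.00306), a chemokine for T cells, rose and Helz2 fell by 0.58 ± 0.11 (adjusted p = 0.000731).

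The libraries highest for the 39 members were also highest for many of the 61 further genes. WD WT NAMPT replicate 3 was the highest of all libraries for 32 (52.5%) and WD LKO NAMPT replicate 4 for 12 (19.7%). The 12 included Cd274, Dtx3l, Gbp4, Ifi47, Nlrc5, Nmi, Psme1, Psme2, Tap2, Tgtp1 and Tgtp2, of which Gbp4, Ifi47, Tgtp1 and Tgtp2 are GTPases and Nlrc5, Psme1, Psme2 and Tap2 serve antigen processing on MHC class I. The 32 included the RNA-binding effectors Eif2ak2, Adar and Ifit3b and the oligoadenylate synthetase genes Oas1b and Oas1g, but also the GTPase Gbp8 and H2-D1, Psmb10 and Tapbp, which serve antigen processing on MHC class I, so these roles were not confined to either library. Tgtp1 measured 6.03, 4.01, 0.958, 24.03 and 1.63 CPM in replicates 1 to 5 of WD LKO NAMPT, and 11.4 in WD WT NAMPT replicate 3. Reads of Tgtp1 and Tgtp2, near-identical copies, may be split between them with error, and the genes listed in this paragraph were named after their values were seen.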

How the data were processed

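Livers of 25 male mice in 5 groups were profiled by poly-A RNA-seq with single reads of 50 bases, and each library is a separate mouse per the labels. The authors aligned reads with STAR 2.5.1a to GRCm38 and deposited counts per Ensembl gene made with featureCounts 1.4.6-p5 from uniquely aligned, unambiguous reads. The methods of the paper name other versions of both programs. The strand setting is not given in the sources used here. The CPM and RPKM columns that the authors deposited beside the counts were checked against the counts and not otherwise used. Symbols were found for 40254 of 41388 identifiers.

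The deposited counts were fitted with limma 3.58.1 (voom with sample quality weights, R 4.3.3) after TMM scaling in edgeR 4.0.16, with all 25 libraries and 1 mean per group. Genes over 1 CPM in at least 2 libraries were kept, and 14065 genes remained after 4 genes of ribosomal RNA were set aside. Values of p were adjusted by the Benjamini-Hochberg method over all of them, and a gene was called at an adjusted p of 0.05 or less. Fold changes are log2 values ± SE from this fit, and p is two-sided. The code was tested on simulated data. There were 6 comparisons, 8 alternative fits (among them DESeq2 1.42.0 and surrogate variables by sva 3.50.0) and 25 fits with 1 library left out.

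The members and all gene lists were chosen with earlier results of these data known. Members called in any comparison (19) were ranked by their lowest adjusted p, and the first 12 were described in full, together with the 2 members highest per kilobase. Other genes given with values per library, such as Igtp, Irgm2, Irf1, Irf8, Zbp1 and Gbp7, were chosen after their values were seen. Libraries of a group differed by more than sampling noise (chi-square per degree of freedom of 15.14 or more). Total counts set the precision of each value, and Mx1 with 8 counts in a library was the least precise.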

Additional observations from a re-analysis of the deposited data

Results flagged for a closer look

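For each of the 39 genes, the highest and lowest library of the 4 WD groups were set against the rest of the group by Dixon's criterion, on untransformed CPM. Its rate of about 5% by chance assumes normally distributed values. CPM skewed towards high values pass it more often on the high side, so that rate does not apply here. The flags describe high libraries and are no test of them. The criterion was passed in 22 of 156 cases, all on the high side, and the genes are not independent of each other.

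In WD LKO NAMPT replicate 4 it was passed by 9 genes. These were Gbp7 (62.0 CPM, the rest of the group 22.6 to 28.5), Igtp (174, 13.6 to 28.3), Iigp1 (559, 202 to 261), Irf1 (74.4, 14.3 to 28.6), Irgm1 (146, 40.3 to 57.5), Irgm2 (232, 36.2 to 58.0), Psmb9 (41.9, 10.9 to 18.6), Tap1 (81.2, 17.3 to 30.8) and Zbp1 (27.2, 3.53 to 10.04). They hold 5 GTPases, 2 antigen processing genes, Irf1 and Zbp1, and no antiviral effector.

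In WD WT NAMPT replicate 3 it was passed by 10 other genes. These were Dhx58 (27.5 CPM, the rest of the group 9.83 to 13.2), Ifi35 (21.7, 13.99 to 15.7), Ifit1 (40.2, 4.24 to 15.3), Ifit2 (19.1, 2.85 to 8.47), Ifit3 (48.6, 9.68 to 19.1), Irf7 (125, 28.03 to 63.1), Isg15 (34.4, 6.14 to 15.5), Oasl1 (40.3, 14.7 to 21.9), Usp18 (30.9, 4.20 to 11.9) and Xaf1 (19.4, 4.14 to 9.65). No GTPase and no antigen processing gene was among them.

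In WD LKO EV, replicate 1 stood above the rest for Ifit1 (9.93 CPM, against 7.36 to 8.05) and Oasl2 (8.12, against 5.25 to 6.04), and replicate 4 for Iigp1 (193, against 148 to 158).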

How the results depend on the processing

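The 17 members called higher in WD WT NAMPT than in WD WT EV became 1 with edgeR's quasi-likelihood test, 11 with DESeq2, 26 with scaling by library size alone, 1 without a filter on low counts, 0 without sample quality weights, 1 with only the groups compared, 4 with a replicate block and 0 with 2 surrogate variables, and 0 to 30 when a library was left out. The share of all genes called higher, 7.67% in the main fit, was 1.92%, 5.21%, 14.3%, 0.876%, 0.569%, 3.41%, 3.26% and 0.178% under these alternatives in that order. With 2 surrogate variables the fold changes of Gbp2 and Irf8 in this comparison turned to -0.089 and -0.073. The 3 called on Western diet became 0, 1, 1, 0, 0, 9, 2 and 1 under the same alternatives in that order, and 0 to 4 when a library was left out. Between the NAMPT groups the count was 0 in all 8 alternatives and 0 to 12 when a library was left out. In the other 3 comparisons it was 0 throughout. Among the named members' fold changes, 19 were no longer past the threshold under edgeR's test and 9 under DESeq2, with the same direction. The cause of these changes was not tested.

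The labels number the replicates, but the numbers do not pair the libraries: correlations of same-numbered libraries' deviations ran from -0.32 to 0.37. The replicate block gave 4 calls in WD WT NAMPT against WD WT EV, 2 on Western diet and 0 in the other comparisons. Members with few counts, such as Mx1, limit what can be called.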

Other observations

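Some induced genes outside the 39 peaked in libraries other than the ones described above. Cxcl9, a chemokine induced by interferon gamma, reached its highest level in WD WT NAMPT replicate 1 (94.7 CPM), together with Ifitm1, Ly6e and Sp140. Cxcl10, a related chemokine, reached it in WD WT NAMPT replicate 2 (22.1 CPM), together with Gbp9, Ifi27l2a and Plscr1. The genes of this paragraph were named after their values were seen, and no test was made of these peaks.

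Markers of lymphocytes did not pass the test in WD WT NAMPT against WD WT EV, where 7.67% of all genes were called higher. At that share lists this short hold few calls, so 0 calls do not show that these cells were unchanged. Of 6 T and NK cell markers 0 were called and 5 had a log2 fold change above 0 (median 0.67). Their sums were 3.89 to 10.04 CPM in WD WT EV and 5.38 to 12.3 in WD WT NAMPT. Of 4 B and plasma cell markers 0 were called and 3 were above 0 (median 0.41). Of 3 plasmacytoid dendritic cell markers 0 were called as well, and all 3 were above 0 (median 0.46).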
